A study of Mus musculus with 10 samples.

Results

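The genes described here encode surface receptors of neutrophils and 1 secreted protein. The list of 10 genes holds Csf3r, Cxcr2, Trem1, Clec4d, Clec4e, Fpr1, Fpr2, Pilra, Cd300ld and Retnlg. A probe set was taken for a gene if the platform annotation gave it exactly 1 symbol and that symbol was in the list. Of the 10 genes, 8 had a probe set, 10 probe sets in all among 45037, and Trem1 and Clec4e had 2 each. Fpr1 and Retnlg, a resistin-like protein of mouse neutrophils, were named for no probe set in the annotation used and were not analysed here.

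Abdominal aortas were taken from 6 KCASP1Tg mice and 4 WT mice, all females of 16 weeks, and each mouse had its own GeneChip Mouse Genome 430 2.0 array. KCASP1Tg mice carry human caspase-1 under the keratin 14 promoter, which acts in keratinocytes, and they develop dermatitis spontaneously. WT mice were C57BL/6 littermates without the transgene. The transgene is human, so the mouse probe sets do not check it. The question of the comparison was how the aorta of mice with inflamed skin differs in gene expression from that of healthy mice. The values are MAS5.0 signals on a linear scale, 1 per probe set, scaled so that the trimmed mean of each array is 500. The median signal of an array lay between 128.3 and 155.7, which serves as a scale for the values below. A signal belongs to its own probe set, so levels of different genes are not directly comparable and were compared between mice. Sums over marker lists add signals of different probe sets, so the brightest ones weigh most in them. Where a gene had 2 probe sets, the one with the higher mean signal stands for it.

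Neutrophils are short-lived phagocytes that are released from the bone marrow and enter inflamed tissue early. Csf3r is the receptor of granulocyte colony-stimulating factor, which drives their production. Cxcr2 and Fpr2 guide migration. Cxcr2 binds CXC chemokines, and Fpr2 binds formylated peptides, serum amyloid A and annexin A1. Trem1, Clec4d and Clec4e are activating receptors that signal through adaptors with an activation motif, and Pilra and Cd300ld belong to paired receptor families of myeloid cells. Monocytes and macrophages also express several of these genes, Clec4d, Clec4e, Pilra and Cd300ld among them.

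The regions before the transcription start were read from RefSeq (GRCm38.p6) for all 10 genes to show which short motifs of myeloid and cytokine-activated factors they hold. Both strands of the 250 bases before the start were searched for GAGGAA, the core of PU.1 sites, for TTGCNNAA, a form of C/EBP sites, and for TTCNNNGAA, a form of STAT sites. GAGGAA was found before 8 of the 10 genes, namely all 8 that were measured, and in 23.3% of 32851 promoters of the table. TTGCNNAA was found before Clec4e, Pilra and Retnlg, and in 9.56% of all promoters. TTCNNNGAA was found before Trem1 and Fpr2, and in 7.02% of all promoters. A match is a description of the letters and no evidence of binding, and binding was not measured here. In the 4 sequences shown, capitals mark GAGGAA and TTGCNNAA or their reverse complements, and no 2 matches overlap. Csf3r lies at chr4:126024409-126024658 on the plus strand, Clec4d at chr6:123261857-123262106 on the plus strand, Clec4e at chr6:123289872-123290121 on the minus strand and Fpr2 at chr17:17887574-17887823 on the plus strand. Clec4d and Clec4e are shown because they are neighbours on chromosome 6. Csf3r and Fpr2 are 2 of the 4 genes that passed the signal filter, the others being Pilra and Cd300ld.
Csf3r: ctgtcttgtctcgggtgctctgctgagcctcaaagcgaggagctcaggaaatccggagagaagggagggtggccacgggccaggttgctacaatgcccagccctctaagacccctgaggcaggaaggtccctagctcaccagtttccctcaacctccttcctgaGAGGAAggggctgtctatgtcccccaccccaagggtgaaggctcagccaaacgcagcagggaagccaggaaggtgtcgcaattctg
Clec4d: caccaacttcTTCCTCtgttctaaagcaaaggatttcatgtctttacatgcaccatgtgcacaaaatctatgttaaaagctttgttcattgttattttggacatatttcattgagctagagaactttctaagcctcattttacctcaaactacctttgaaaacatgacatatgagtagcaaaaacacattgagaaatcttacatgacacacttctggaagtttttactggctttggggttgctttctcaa
Clec4e: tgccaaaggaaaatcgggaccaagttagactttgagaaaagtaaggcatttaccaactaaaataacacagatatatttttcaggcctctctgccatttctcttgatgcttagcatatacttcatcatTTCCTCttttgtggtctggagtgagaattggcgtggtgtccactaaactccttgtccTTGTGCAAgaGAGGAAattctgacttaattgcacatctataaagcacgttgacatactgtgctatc
Fpr2: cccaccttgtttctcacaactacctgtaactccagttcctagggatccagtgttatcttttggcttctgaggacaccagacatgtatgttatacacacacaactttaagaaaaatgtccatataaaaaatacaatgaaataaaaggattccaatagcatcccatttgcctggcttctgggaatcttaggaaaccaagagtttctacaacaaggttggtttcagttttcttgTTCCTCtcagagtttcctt
The Clec4e region holds 2 GAGGAA matches, 123 and 56 bases before the start, and a TTGCNNAA match 66 bases before it. The match of Clec4d lies 240 bases before the start, that of Csf3r 86 and that of Fpr2 19.

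All 8 measured genes had a higher mean log2 signal in KCASP1Tg aortas than in WT aortas, with log2 fold changes between 0.40 for Pilra and 2.06 for Fpr2. The difference was at least 1 on the log2 scale, a doubling, in 6 of the 8 genes, which 3.84% of 18193 genes reached. The median of the 8 was 1.64, and over all genes it was 0, with 49.7% of genes above 0. No gene of the 8 was called by limma. At an adjusted p under 0.05, limma called 0 of the 4 that entered the fit, which took the 26242 probe sets that reached a signal of 100 on 4 arrays or more. The share called higher over that fit was 0.0686%. Of these 4, Csf3r and Fpr2 passed the filter through KCASP1Tg mice. Csf3r reached 100 in 5 KCASP1Tg and 0 WT mice and Fpr2 in 6 KCASP1Tg mice and 1 WT mouse, so no count over the 4 before adjustment is read. With no filter on the signal 0 of 8 were called, beside 0.0355% of 45037 probe sets. Before adjustment and with no filter, limma gave a p under 0.05 for 7 of the 8, beside 3.61% of all probe sets that were higher at that limit. By the exact two-sided Mann-Whitney test, whose smallest possible p is 0.00952 with 6 mice against 4, 4 of the 8 genes had an unadjusted p under 0.05, and 4.23% of all genes did so in that direction. The groups overlapped for every one of the 8 genes, whereas 1.8% of all genes were higher in every KCASP1Tg mouse than in every WT mouse.

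**Figure D1:**
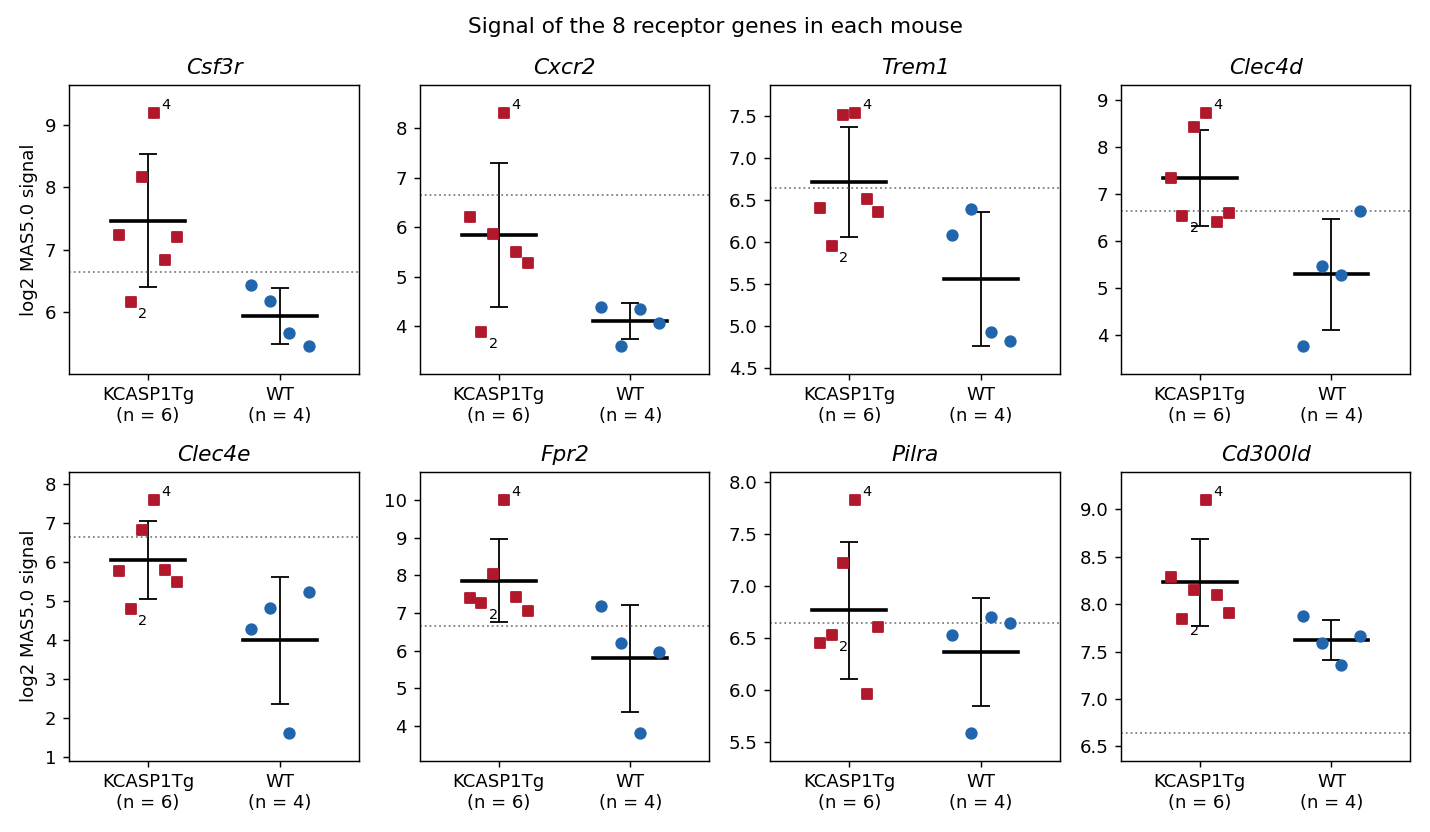
Log2 MAS5.0 signal of the representative probe set of each of the 8 genes (vertical axis, own scale per panel) in 6 KCASP1Tg mice (red squares) and 4 WT mice (blue circles). Horizontal lines with bars are the mean ± SD of the log2 signals, the dotted line is a signal of 100, and the digits mark KCASP1Tg 4, the highest array for all 8 genes, and KCASP1Tg 2.

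The cytokine receptor Csf3r (1418806_at) gave signals of 150.6, 71.8, 286.2, 584.9, 114.3 and 146.8 in KCASP1Tg 1 to 6, against 86.1, 72.3, 50.9 and 43.9 in WT 1 to 4. KCASP1Tg 2 lay among the WT mice and the other KCASP1Tg mice were above all of them. The mean was 225.8 ± 190.1 in KCASP1Tg mice and 63.3 ± 19.4 in WT mice (SD, n = 6 and 4). The log2 fold change was 1.53 (SE 0.51, 95% interval 0.41 to 2.65), with an adjusted p of 0.456 in limma and an exact Mann-Whitney p of 0.0381. Without KCASP1Tg 4 the log2 fold change was 1.19 (exact p = 0.0635).

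The chemokine receptor Cxcr2 (1421734_at) was dim, with signals of 74.0, 14.8, 58.5, 315.8, 45.1 and 38.7 in KCASP1Tg mice, against 21.0, 12.2, 20.4 and 16.7 in WT mice. Again KCASP1Tg 2 fell among the WT values, and the signal of KCASP1Tg 4 was 7 times the median of the other KCASP1Tg mice. Its log2 fold change was 1.74 (SE 0.69, 95% interval 0.19 to 3.28) in the fit with no filter (adjusted p = 0.691), with an exact Mann-Whitney p of 0.0667. Without KCASP1Tg 4 it was 1.25 (exact p = 0.111), and without KCASP1Tg 2 it was 2.13 (exact p = 0.0159).

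The formyl peptide receptor Fpr2 (1422953_at) had the largest log2 fold change of the 8 genes. Its signals were 168.6, 153.7, 260.3, 1027.8, 173.3 and 131.6 in KCASP1Tg mice, against 145.9, 74.1, 14.2 and 62.6 in WT mice. KCASP1Tg 6 was the sole KCASP1Tg mouse below the highest WT mouse, WT 1. The mean was 319.2 ± 349.9 in KCASP1Tg mice and 74.2 ± 54.4 in WT mice (SD, n = 6 and 4). The log2 fold change was 2.06 (SE 0.70, 95% interval 0.52 to 3.61), with an adjusted p of 0.468 in limma and an exact Mann-Whitney p of 0.019. It was 1.63 without KCASP1Tg 4 and 1.40 without WT 3, whose signal of 14.2 was the lowest, with exact p of 0.0317 and 0.0476.

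Trem1, which amplifies inflammatory signals of neutrophils and monocytes, had signals of 84.8, 62.0, 183.1, 186.4, 91.5 and 82.0 in KCASP1Tg mice, against 67.8, 83.9, 30.5 and 28.3 in WT mice (1447284_at). KCASP1Tg 3 and KCASP1Tg 4 stood far above the rest, whereas KCASP1Tg 2 and KCASP1Tg 6 lay below WT 2. The log2 fold change was 1.16 (SE 0.43, 95% interval 0.20 to 2.12) with no filter (adjusted p = 0.663), and the exact Mann-Whitney p was 0.0667. Without KCASP1Tg 4 it was 0.99 (exact p = 0.111). The other probe set of Trem1 (1460282_at) was near the floor, at 2.76 to 71.1 in KCASP1Tg mice and 3.03 to 10.6 in WT mice, and its log2 fold change was 1.56 (SE 0.80, exact Mann-Whitney p = 0.257).

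Clec4d and Clec4e are C-type lectins that bind glycolipids of mycobacteria, and they lie side by side on chromosome 6. Clec4d (1420804_s_at) had signals of 161.8, 92.6, 340.6, 421.8, 83.9 and 95.8 in KCASP1Tg mice, against 13.6, 44.4, 38.7 and 99.1 in WT mice. The overlap came from WT 4, which was above KCASP1Tg 2, KCASP1Tg 5 and KCASP1Tg 6. The log2 fold change was 2.04 (SE 0.64, 95% interval 0.61 to 3.48) with no filter (adjusted p = 0.595), and the exact Mann-Whitney p was 0.0667. For Clec4d the log2 fold change was 2.49 without WT 4 (exact p = 0.0238), 1.54 without WT 1 (exact p = 0.167) and 1.76 without KCASP1Tg 4 (exact p = 0.111). Clec4e (1420330_at) had signals of 54.5, 27.9, 112.9, 194.4, 55.5 and 45.2 in KCASP1Tg mice, against 19.4, 28.5, 3.09 and 37.8 in WT mice. KCASP1Tg 2 lay below WT 2 and WT 4. Its log2 fold change was 2.05 (SE 0.75, 95% interval 0.37 to 3.74) with no filter (adjusted p = 0.662), with an exact Mann-Whitney p of 0.0381, and without WT 3, at 3.09 the dimmest value, it was 1.26 (exact p = 0.0952). Without KCASP1Tg 4 it was 1.74 (exact p = 0.0635). The other probe set of Clec4e (1420331_at) was at 14.6 to 68.0 in KCASP1Tg mice and 6.94 to 21.5 in WT mice, with a log2 fold change of 1.53 (SE 0.46, exact Mann-Whitney p = 0.019). The log2 fold changes of Clec4d and Clec4e differed by -0.01.

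Pilra and Cd300ld had the smallest differences. Pilra, an inhibitory receptor, had signals of 87.6, 92.7, 149.3, 228.0, 62.5 and 97.3 in KCASP1Tg mice, against 92.4, 48.2, 104.5 and 100.0 in WT mice (1427327_at). KCASP1Tg 3 and KCASP1Tg 4 were above every WT mouse and the other KCASP1Tg mice were mixed with them, so that the ratio of the medians, KCASP1Tg over WT, was 0.987. The log2 fold change of the means was 0.40 (SE 0.35, 95% interval -0.38 to 1.18), with an adjusted p of 0.867 in limma and an exact Mann-Whitney p of 0.762. It was 0.19 without KCASP1Tg 4 and 0.14 without WT 2. Cd300ld (1424832_at) was the 1 gene of the 8 with a signal of at least 100 in every mouse. It had signals of 312.5, 229.6, 284.3, 550.2, 273.5 and 240.0 in KCASP1Tg mice, against 234.9, 192.5, 164.1 and 203.4 in WT mice. KCASP1Tg 2 was the sole KCASP1Tg mouse below the highest WT mouse. The mean was 315.0 ± 119.1 in KCASP1Tg mice and 198.8 ± 29.3 in WT mice (SD, n = 6 and 4), and the log2 fold change was 0.61 (SE 0.23, 95% interval 0.10 to 1.12), with an adjusted p of 0.531 in limma and an exact Mann-Whitney p of 0.019. Without KCASP1Tg 4 it was 0.43 (exact p = 0.0317).

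**Figure D2:**
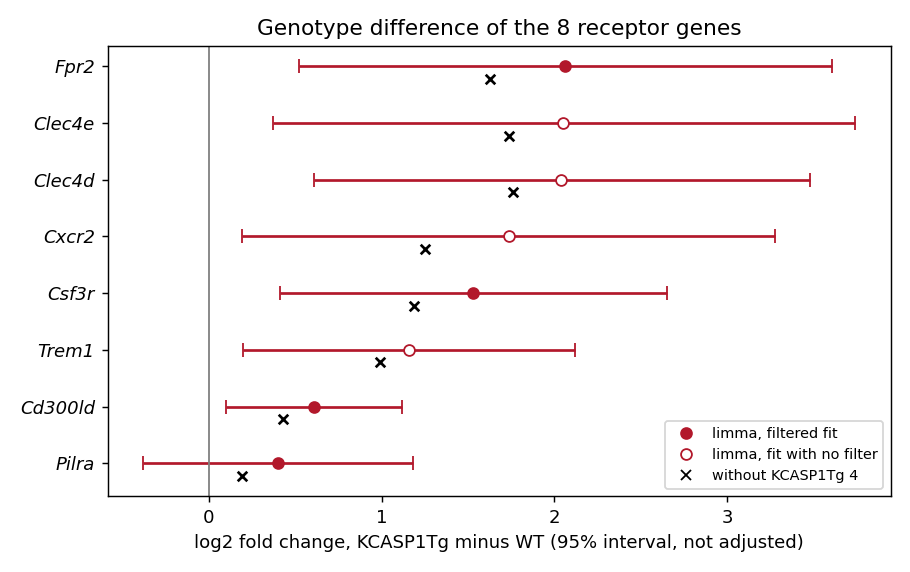
Log2 fold change (horizontal axis, KCASP1Tg minus WT) of the 8 genes, with 95% intervals from limma that are not adjusted for the number of probe sets. Filled circles are genes in the filtered fit, open circles come from the fit with no filter, and crosses are the values without KCASP1Tg 4, all of which are above 0 and below the value over 10 mice.

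The 6 KCASP1Tg mice differed widely from one another in these genes. All 8 genes, and all 10 probe sets, had their highest signal in KCASP1Tg 4, which held the highest signal for 19.8% of 18193 genes. KCASP1Tg 3 was second in 6 of the 8. The median of the 8 genes above their WT means was 1.45, 0.32, 2.09, 3.35, 1.03 and 1.21 on the log2 scale in KCASP1Tg 1 to 6, against 0.29, 0.22, -0.26 and 0.11 in WT 1 to 4. KCASP1Tg 2 was therefore near the WT mice, and it was the lowest KCASP1Tg mouse for 5 of the 8 genes. Of the 8 genes, 7, 1, 8, 8, 6 and 4 lay above every WT mouse in KCASP1Tg 1 to 6. For Csf3r, Cxcr2, Clec4e and Cd300ld it was the sole KCASP1Tg mouse that reached into the WT range. Without KCASP1Tg 4 the median log2 fold change of the 8 was 1.22, and all 8 stayed above 0. The correlation of log2 signals between 2 of the genes, after each genotype mean was subtracted, had a median of 0.60 over the 28 pairs (0.22 to 0.89, 10 arrays), and without KCASP1Tg 4 the median was 0.33 (-0.13 to 0.86). These pairs share the same arrays, so they are not independent of one another.

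**Figure D3:**
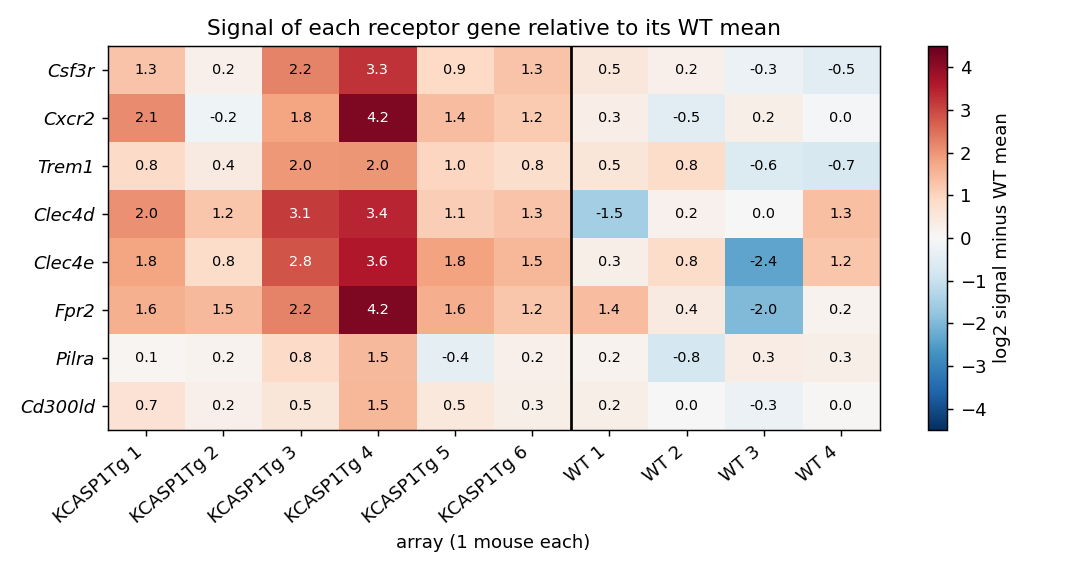
Log2 signal of each of the 8 genes minus its mean in WT mice (colour and printed value) in 6 KCASP1Tg mice, left of the line, and 4 WT mice. KCASP1Tg 4 and KCASP1Tg 3 are above every WT mouse for all 8 genes, and KCASP1Tg 2 is above every WT mouse for 1 gene.

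Other neutrophil transcripts were set beside the receptors. In bulk tissue, a change in the number of cells of a type and a change in RNA per cell cannot be told apart. All 7 neutrophil markers on the array were higher in every KCASP1Tg mouse than in every WT mouse, as 1.8% of all genes were. Of these markers, the paper had named S100a8, S100a9 and Camp as upregulated from these same arrays, so their rise was known beforehand. The summed signals of the 7 were 6309 to 57875 in KCASP1Tg mice, against 372 to 498 in WT mice. The highest sum was that of KCASP1Tg 4, and the other KCASP1Tg mice reached 12780. S100a8 and S100a9 made up most of the sum in KCASP1Tg mice, at 21042.7 and 20293.4 in KCASP1Tg 4. The paper reports that both also rose in cultured endothelial cells given a mixture of inflammatory cytokines. Which cells gave these signals in the aorta was not tested. KCASP1Tg 2, near the WT mice in its receptors, had an S100a8 signal of 2831.7, against 110.4 to 132.2 in WT mice. A wider list held 36 neutrophil genes without the receptors, these 7 markers among them. Of the 36, 35 had a log2 fold change above 0 (median 1.28), and 14 were higher without overlap, beside 1.8% of all genes. Of the 29 in the filtered fit, limma called 3, beside 0.0686% called higher over that fit. Genes of this list can pass the filter through KCASP1Tg mice, as Chil3 did (highest WT signal 46.5). The 3 called were the calcium-binding S100a8 (5.22, adjusted p = 0.00633 in limma) and S100a9 (5.34, adjusted p = 0.00633) and the chitinase-like Chil3 (5.64, adjusted p = 0.0136). All 3 were among the genes that the paper had named from these arrays. The fold changes of the receptors and of these genes were not tested against each other. With genotype means subtracted, the mean log2 signal of the receptors correlated at 0.84 with that of the 7 neutrophil markers (10 arrays). For the leukocyte markers described next, r was 0.88 (dendritic), 0.84 (B and plasma), 0.83 (T and natural killer) and 0.79 (monocyte and macrophage). It was 0.38 for mast cells and 0.16 for eosinophils. Without KCASP1Tg 4, r was 0.45 for neutrophil markers and, in the same order, 0.63, 0.56, 0.40, 0.51, 0.28 and -0.51.

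Markers of other leukocytes were read in the same way. The filtered fit held 11 of 11 monocyte and macrophage markers and 5 of 5 B and plasma cell markers. For T and natural killer cells it held 3 of 6, and for dendritic cells 3 of 6. It held 4 of 6 mast cell markers and 0 of 5 eosinophil markers. Of the markers in the fit limma called 0, and the rest could not be called. The 11 monocyte and macrophage markers all had log2 fold changes above 0 (median 0.75), and they summed to 10331 to 27541 in KCASP1Tg mice, against 8862 to 12580 in WT mice. Of these 11, Cd68 and Fcgr1 were higher without overlap, as were 1.8% of all genes, and 6 had an unadjusted p under 0.05. Over the fit, 1185 of 26242 probe sets were higher at that limit. Genes of these and the later lists can pass the filter through KCASP1Tg mice, as Slc4a1 did (highest WT signal 77.8). Such counts are therefore not read. The 5 B and plasma cell markers summed to 20648 to 67775 in KCASP1Tg mice, against 2041 to 11860 in WT mice. Ighm made up most of that sum in most mice, it and Jchain did not overlap, and Cd79a, Cd79b and Ms4a1 did. The 6 T and natural killer cell markers summed to 460 to 3186 in KCASP1Tg mice, against 441 to 501 in WT mice. In the monocyte and macrophage, the B and plasma cell and the T and natural killer cell lists the highest sum was that of KCASP1Tg 4, whose 6 smooth muscle markers summed to 31012. The remaining KCASP1Tg mice had 67098 to 81429 for smooth muscle, against 70984 to 81449 in WT mice. No marker of these lists was at 0, but Cd79a fell to 5.75 and Cd4 to 7.81 in single mice. The median log2 fold change was 1.07 over 5 eosinophil markers, all too dim for the filtered fit, and 0.22 and 0.21 over 6 mast cell and 6 dendritic cell markers, with no marker of these 3 lists free of overlap. The 4 erythroid markers had a median of 2.75 and summed to 986 to 7168 in KCASP1Tg mice, against 370 to 977 in WT mice, with the lowest KCASP1Tg sum in KCASP1Tg 4. Of these 4, Slc4a1 did not overlap (log2 fold change 4.20, SE 0.87) and Alas2, the first enzyme of heme synthesis in red cells, had a log2 fold change of 2.70 (SE 0.56), and limma called 0 of the 2 in the filtered fit, both of which had an unadjusted p under 0.05. The part of blood and of these cells in the receptor signals was not tested. Smooth muscle and fat transcripts were strong in all mice, and transcripts of liver (150 to 3398 in KCASP1Tg mice, against 1601 to 123124 in WT mice, summed over 5 markers) and heart muscle (475 to 21260 in KCASP1Tg mice, against 2203 to 44207 in WT mice, likewise summed over 5) were present in some.

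**Figure D4:**
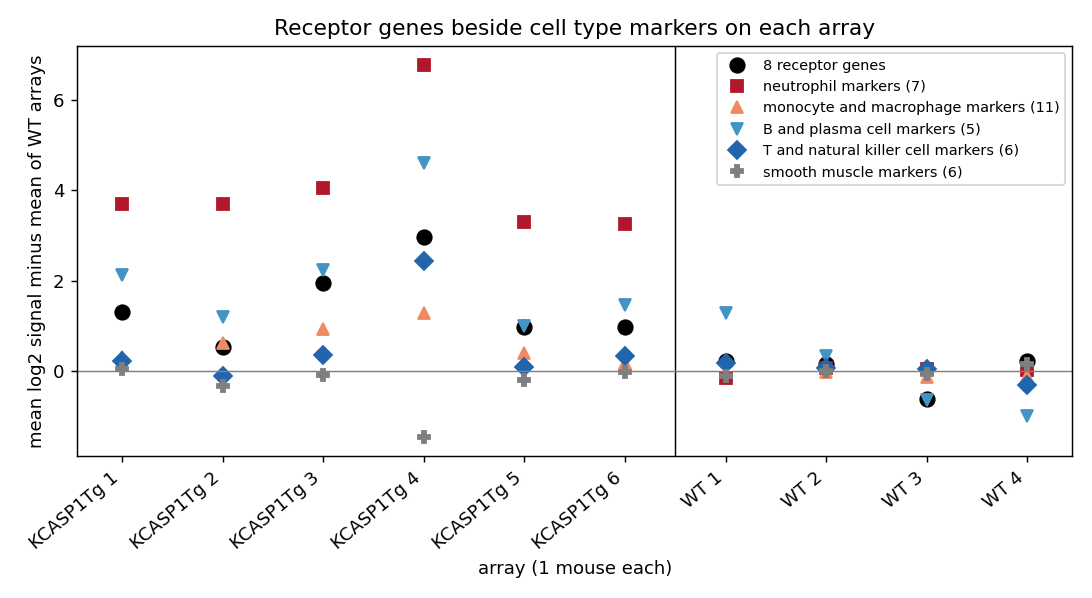
Mean log2 signal of the 8 receptor genes (black) and of 5 lists of cell type markers (number of genes in brackets) on each array, minus the mean of the WT arrays. Neutrophil markers are above every WT mouse in all 6 KCASP1Tg mice, and KCASP1Tg 4 has the highest leukocyte values and the lowest smooth muscle value.

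The ligands of these receptors were examined on the same arrays. Of 12 ligand genes, 8 had a log2 fold change above 0, 0 of the 5 in the filtered fit were called by limma (1 had an unadjusted p under 0.05), and the groups overlapped for all 12. The median was 0.29. Csf3, the ligand of Csf3r, was dim, at 5.23 to 63.5 in KCASP1Tg mice, against 5.41 to 39.2 in WT mice. The Cxcr2 ligand Cxcl1 was at 194.0 to 280.8 in KCASP1Tg mice and 139.8 to 240.3 in WT mice, with a log2 fold change of 0.37 (SE 0.17, adjusted p = 0.651 in limma). Of the Fpr2 ligands, Anxa1 had a log2 fold change of -0.02 (SE 0.18) and Saa3 of 0.08 (SE 0.43). Saa1 and Saa2 had -0.27 (SE 0.66) and -0.43 (SE 0.20, exact Mann-Whitney p = 0.0667). Ppbp, a Cxcr2 ligand stored in platelets, had a log2 fold change of 1.92 (SE 0.61, adjusted p = 0.443 in limma). Its signal was 755.6 in KCASP1Tg 4, where the receptors were highest. In the remaining KCASP1Tg mice it was 2730.2 to 6663.8, against 366.5 to 1497.0 in WT mice. The 6 platelet markers, Ppbp among them, likewise summed to 3944 in KCASP1Tg 4 and to 9571 to 17738 in the remaining KCASP1Tg mice, against 3025 to 4972 in WT mice.

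Among 16 genes that carry the receptors' signals, 15 had a log2 fold change above 0 (median 0.51), and limma called 0. Before adjustment 6 had a p under 0.05 in limma, beside 1185 of 26242 probe sets that were higher at that limit over the fit. The groups did not overlap for 6 of the 16, all higher in KCASP1Tg mice, beside 1.8% of all genes that were higher without overlap. Tyrobp, the adaptor of Trem1, was at 1241.5 to 5542.6 in KCASP1Tg mice and 817.8 to 1090.8 in WT mice, with a log2 fold change of 1.03 (SE 0.38, adjusted p = 0.512 in limma). Fcer1g, the adaptor through which Clec4e signals, was at 1037.7 to 3005.5 in KCASP1Tg mice and 563.6 to 881.9 in WT mice, with a log2 fold change of 1.05 (SE 0.29, adjusted p = 0.342 in limma). Both adaptors were thus above the WT range in all 6 KCASP1Tg mice, which none of the 8 receptor genes was. Socs3, a feedback inhibitor of cytokine receptors, was at 285.7 to 803.6 in KCASP1Tg mice and 154.6 to 269.3 in WT mice (log2 fold change 1.11, SE 0.29). The Src family kinase Fgr was at 147.6 to 592.4 in KCASP1Tg mice and 64.6 to 116.4 in WT mice (log2 fold change 1.34, SE 0.36). The other 2 without overlap were the kinase Syk and the transcription factor Stat3, with log2 fold changes of 1.08 and 0.29.

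Genes of the same families were examined next. Of 27 relatives, 24 had a log2 fold change above 0 (median 0.70), and limma called 0 of the 21 in the filtered fit. Before adjustment 10 of the 21 had a p under 0.05, beside 1185 of 26242 probe sets that were higher at that limit over the fit. Clec4n, for example, reached a signal of 100 in KCASP1Tg mice only, so that count is not read. The groups did not overlap for 5 of the 27, all higher in KCASP1Tg mice, beside 1.8% of all genes that were higher without overlap. These were Ccr1, a chemokine receptor (log2 fold change 1.30, SE 0.29), the platelet protein Treml1 (1.61, SE 0.32), the lectins Clec4a3 (1.07, SE 0.34) and Clec7a (1.37, SE 0.35), and Csf2rb2, a chain of cytokine receptors (319.6 to 1688.1 in KCASP1Tg mice, against 198.9 to 266.4 in WT mice). The resistin-like genes next in family to Retnlg, Retn and Retnla, had log2 fold changes of -0.15 (SE 0.16) and -0.12 (SE 0.21), with Retn, a product of fat cells in mice, at 15853.2 to 25379.1 in KCASP1Tg mice and 19164.7 to 23702.2 in WT mice. Retnlb, the other resistin-like gene, was near the floor, at 2.83 to 23.9 in KCASP1Tg mice and 1.34 to 4.57 in WT mice, with a log2 fold change of 1.61 (SE 0.56) and an adjusted p of 0.645 in limma with no filter.

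A receptor and another receptor of the same family or of a related function were compared within each mouse by the difference of their log2 signals. Of 9 such pairs, 0 differed between genotypes at an adjusted p under 0.05 (exact two-sided Mann-Whitney test, adjusted over the 9). The smallest p was that of Cxcr2 minus Cxcr4, a chemokine receptor of many leukocytes, where the mean difference was 1.46 higher in KCASP1Tg mice than in WT mice (exact p = 0.0381, adjusted p = 0.3, 96.2% interval of the shift 0.04 to 2.95). The log2 fold change was 1.74 for Cxcr2 and 0.28 for Cxcr4. For Csf3r minus Csf1r, the receptor of the macrophage growth factor and a tyrosine kinase of another family, the mean difference was 1.05 (exact p = 0.0667, adjusted p = 0.3, interval -0.20 to 1.97). The other 7 pairs had exact p between 0.257 and 1, and their intervals were wide, as for Clec4d minus Clec4e (-2.53 to 2.08) and Clec4d minus Clec4n (-1.27 to 2.82), and narrower for Pilra minus Pilrb1 (-0.67 to 0.88).

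For each gene, the gene with the most similar pattern was taken as the one with the highest Pearson correlation of log2 signals over 10 arrays after each genotype mean was subtracted. These were Tifa for Csf3r (r = 0.99), Gadd45b for Cxcr2 (0.96), Safb2 for Trem1 (0.96), Eef2 for Clec4d (0.97), Mon1b for Clec4e (0.94), Irf2 for Fpr2 (0.95), Mfsd10 for Pilra (0.96) and Rfc5 for Cd300ld (0.97). Each is the highest of all genes tested, over 10 arrays. Without KCASP1Tg 4 the same correlations were 0.97, 0.93, 0.96, 0.96, 0.92, 0.92, 0.93 and 0.87 in that order. The arrays left are among those on which each gene was picked, so these values are no separate check.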

How the data were processed

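Total RNA of 10 abdominal aortas, 1 per mouse, was hybridised to GeneChip Mouse Genome 430 2.0 arrays. With MAS5.0 at its default settings and a target of 500, the authors derived 1 intensity for each probe set, and these linear intensities were deposited. Trimmed by 2% at both ends, all arrays averaged 500.0. The methods give fewer mice than the 10 arrays, and all 10 were used. Genes were named from the platform annotation and updated through RefSeq gene identifiers for 34741 of 34945 probe sets with 1 symbol, 204 kept the platform symbol, and 932 with several and 9160 with none were not named. Control probe sets (64) were left out.

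Signals under 1 were set to 1 and log2 values taken. The 26242 probe sets that reached a signal of 100 on 4 or more arrays entered limma 3.58.1 (R 4.3.3). Genotype was the term, and Benjamini-Hochberg adjustment ran over all of them. The Mann-Whitney test, named in the methods for 2 groups in general, was run beside it in its exact form. MAS5.0 subtracts mismatch signals, so dim values vary strongly. A signal under about 100 therefore leaves the size of a log2 fold change open to the floor, and the number of mice limits the precision. In limma the difference between genotypes is set against the spread between mice, moderated over the probe sets of the fit. The Mann-Whitney test uses the ranks of the mice only. Of these steps, the limma fit alone was tried on simulated data, drawn as independent normal values. The simulation held no array that stood apart as KCASP1Tg 4 does.

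The members and lists were chosen with earlier results of these data known. Named were all members, the genes of the pairs, from each list the called genes and up to 4 with the smallest limma p, and, of the 3 genes most like each member, the first. Csf3, Anxa1, Saa1, Saa2, Saa3, Syk, Stat3, Clec4a3, Csf2rb2, Cd68, Fcgr1, Cd79a, Cd79b, Ms4a1, Ighm, Jchain, Cd4, Slc4a1, Alas2 and Retnlb were named after their values were seen. No pair with Fpr1 or Retnlg was run (3 of 12 planned). Alternatives covered the floor (16), a pseudocount of 50, quantile normalization, median centring, the filter (none, or 200), an intensity trend, array weights, the replicate block, the mean of probe sets, the Mann-Whitney test after adjustment, an adjusted p under 0.01 and each array left out. Leaving out WT 4 with KCASP1Tg 3, at 1 end of the first principal component, was added after seeing the data. Batches and scan dates are not given in the sources used here. Plots were made in Python 3.11.15 (matplotlib 3.10.9).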

Additional observations from a re-analysis of the deposited data

Results flagged for a closer look

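Each group of mice was checked for a mouse far from the others by Dixon's ratio of the log2 signals. The 10 probe sets in both genotypes gave 20 groups in all, of which chance flags about 1. The values printed here are linear signals, on which the ratio was not taken. KCASP1Tg 4 stood apart in Fpr2, at 1027.8 against 131.6 to 260.3 in the remaining KCASP1Tg mice, and in Cd300ld, at 550.2 against 229.6 to 312.5 in the remaining KCASP1Tg mice. Among WT mice, WT 2 stood apart in Pilra, at 48.2 against 92.4 to 104.5 in the other WT mice.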

How the results depend on the processing

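The count of receptor genes called by limma was 0 under all alternatives run, and the lowest adjusted p of a receptor gene was 0.129, for Cd300ld with array weights. The median log2 fold change ranged between 0.79 with a pseudocount of 50 and 1.96 without KCASP1Tg 2. With the replicate block over numbers 1 to 4, it was 1.86. The block, and the Mann-Whitney test after adjustment, called 0 probe sets of the whole array, the filter of 200 left 1 receptor gene in the fit, and a limit of 0.01 could give no more calls than that of 0.05, so these 4 say nothing about stability. Same-numbered mice correlated at 0.108, -0.314, -0.435 and -0.326, so the numbers only name mice. The count of genes whose groups did not overlap, 0 over all mice, was 1 with quantile normalization (Cd300ld, the cause was not tested, 1.69% of all genes), 1 without WT 4 and KCASP1Tg 3 (Clec4d, 3.5% of all genes), and 0 to 4 when single mice were left out. It was 4 without KCASP1Tg 2 (2.46% of all genes), the lowest KCASP1Tg mouse for these 4, 2 without WT 1 (Fpr2 and Cd300ld, 2.57%), 1 without WT 4 (Clec4d, 3.11%) and 1 without KCASP1Tg 6 (Fpr2, 2.97%). Leaving out the mouse that overlaps has to raise such a count. The count of gene pairs past the threshold was 0 in every setting run. All 8 log2 fold changes were above 0 in every setting, and the pseudocount of 50 brought Cxcr2 to 0.81, Clec4e to 0.78 and Trem1 to 0.66. The signals of 6 of the 8 genes were under 100 in at least 3 WT mice, which limits how well the size of their differences is known.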
